A study of Mus musculus with 2 samples.

Results

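The endothelial cells of the spinal cord were described in 1 library of SMA mice and 1 library of Con mice. They were chosen by marker genes: a kept cell counted as endothelial when it held a UMI, that is, 1 captured and tagged RNA molecule, in 4 or more of the 8 genes Cldn5, Pecam1, Flt1, Cdh5, Slc38a5, Ctla2a, Pglyrp1 and Slc22a8, and in at most 1 of the 6 genes Kcnj8, Higd1b, Col1a2, Cx3cr1, Pdgfra and Aqp4, which mark mural cells, fibroblasts, microglia and other glia. This gave 701 cells of 17043 kept cells, 309 of 6787 in SMA and 392 of 10256 in Con. The 2 libraries listed 52340 barcodes in all.

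Spinal muscular atrophy (SMA) follows from loss of the SMN protein, and the study compared the spinal cord cell types of affected and unaffected mice at postnatal day 4. The SMA mice were mSmn-/-, hSMN22tg/0, that is, without intact mouse Smn1 and with the human SMN2 transgene, and the Con mice were mSmn+/-, hSMN22tg/0, so that both groups carried the transgene and Con mice had lost 1 Smn1 allele as well. Mice of both groups were of the FVB strain, each library pooled the whole spinal cords of 3 littermates, and trypsin and collagenase were used to free the cells for single-cell 3′ RNA sequencing. Each group was thus a single library, no test between the groups was possible, and the 95% intervals given here cover counting error only.

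Endothelial cells line the blood vessels. In the brain and spinal cord they form a barrier, sealed by tight junctions and poor in vesicles, and the nutrients of the tissue pass through transporters in their membrane. Wnt and Norrin signals from neural cells set up this barrier state, VEGF and Notch guide the growth of new vessels, and genes of arteries, capillaries and veins change along the vessel tree. After birth, vessels of the spinal cord are still growing.

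The depth of the endothelial cells was close in both libraries. A cell held a median of 7003 UMIs and 2435 genes in SMA and of 8009.5 UMIs and 2609 genes in Con, and mitochondrial transcripts made up a median of 6.08% and 6.38% of its UMIs. In all, 2367402 UMIs of SMA and 3289309 of Con entered the comparison. Most cells were far inside the marker limit, with all 8 markers in 113 SMA and 180 Con cells and 7 of them in 119 and 100. At the limit, 11 SMA cells and 32 Con cells had 4 markers, with a median of 4879 and 3709.5 UMIs, and 19 SMA cells and 36 Con cells that were left out had 3, with a median of 4734 and 4101 UMIs. A further 23 SMA cells and 44 Con cells had enough endothelial markers but 2 or more markers of other cells.

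The name was checked with 16 endothelial genes that the rule did not use, since genes of the chosen cells are a description and not a test. All 16 were at least 2-fold higher in the chosen cells than in the other kept cells in both libraries, where 15.4% of 5904 genes were. Tie1 and Tek, the angiopoietin receptors, Kdr, the main VEGF receptor, Esam and Egfl7 were among them. Among genes outside the rule with at least 1000 UMIs, the 20 that stood out most from the other kept cells over both libraries ranged from 54.3-fold (Dok4, 69.6-fold in SMA and 47.2-fold in Con) to 162-fold (Tmem252, 348-fold and 110-fold) in level. All 20 had the larger fold in SMA, and they included Adgrl4 (143-fold), the transcription factors Sox17 (129-fold), Sox18 (123-fold) and Foxq1 (103-fold), the thyroid hormone transporter Slco1c1 (127-fold), Kdr (110-fold), the retinol carrier Stra6 (104-fold), Egfl7 (95.1-fold) and Lsr (93.1-fold), a protein of tricellular junctions. Of 12 genes known from vessels outside the nervous system, 10 had a UMI. The capillary genes Emcn (596 UMIs in SMA and 805 in Con) and Car4 (970 and 1411) were the highest, Gpihbp1 had 48 and 83, the lymphatic markers Lyve1 and Prox1 had 0 and 2 in SMA and 0 and 11 in Con, and Meox2 had 0 in both. Ccl21a, a chemokine of lymphatic and high endothelium, was 134-fold above the other kept cells and lay in 33 SMA cells (504 UMIs) and 86 Con cells (1576 UMIs), a log2 ratio of SMA over Con of −1.17, and −0.08 with the shared barcodes described next left out of Con.

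Barcodes were shared between the libraries, and the shared ones had been taken out of SMA alone. The barcodes of 335 of the 392 Con cells were also listed in SMA, each with fewer UMIs there (median 1538, against 8617 in Con), and the SMA total was a steady 17.8% of the Con total, with a 5th to 95th percentile of 16.3 to 19.0%. A UMI of Xist, the transcript of the inactive X chromosome in females, was present in 118 of these barcodes in the SMA listing and 197 in the Con listing. Keeping the shared barcodes in SMA would have raised its endothelial cells from 309 to 753, whereas leaving them out of Con as well would have left 57 Con cells. These 57 cells were shallower, with a median of 3051 UMIs, so values of single genes under that setting rest on few Con UMIs. Values under both settings are given for the main histone and p53 results, Ccn2, the arterial and S-phase lists and the shares of cells.

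Sex also differed between the pools. A Xist UMI was found in 2 of the 309 SMA cells (0.647%) and in 217 of the 392 Con cells (55.4%), and a UMI of a Y-linked gene in 171 and 116 cells, so that Con held cells of both sexes and SMA almost none with Xist. The 102 Con cells with a Y-linked and no Xist UMI served as a male comparison. Smn1 itself had 83 UMIs in SMA and 124 in Con (35.1 and 37.7 CPM, UMIs per 1000000 of the endothelial UMIs; log2 ratio SMA over Con −0.10, −0.52 to 0.31). Counts per gene do not show from which exon a UMI came, so Smn1 was no check of the genotype.

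Endothelial cells made up 4.55% of kept cells in SMA (4.07 to 5.08%) and 3.82% in Con (3.46 to 4.21%). The log2 ratio of these shares was 0.25 (0.04 to 0.46). Its direction was not stable, since among cells with at least 5000 UMIs the ratio was −0.11, and it was −0.016 without cells rich in ribosomal or haemoglobin RNA and −0.013 when the marker rule was applied to cells thinned to 2000 UMIs. It was 0.57 with the shared barcodes kept in SMA and 1.56 with those barcodes left out of Con too. In this suspension, a share is of the cells that survived dissociation and not of the tissue.

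Between SMA and Con, most endothelial genes differed little. Of 5904 genes with at least 100 UMIs over both libraries, 57 (0.965%) were at least 2-fold higher in SMA and 37 (0.627%) at least 2-fold lower, and the median log2 ratio was 0.01. The counts were 43 and 17 of 6560 genes with the shared barcodes kept in SMA and 251 and 60 of 3515 with them left out of Con too, where 57 Con cells remained. A counting interval above 0 was found for 16.4% of the genes and one below 0 for 13.8%, so an interval clear of 0 was common. Scaling without haemoglobin, ribosomal-protein and mitochondrially encoded genes gave 45 higher and 46 lower. In all other kept cells together, 2.67% of 14322 genes were higher and 2.58% lower by the same rule. In mural-like cells, the 82 SMA and 194 Con cells with 4 or more of 8 pericyte and smooth muscle markers that were not endothelial, 1.27% of 2673 genes were higher and 1.87% lower. Genes of the clustered histones and of the p53 response stood among the highest, and genes of the barrier lay near 0.

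**Figure D1:**
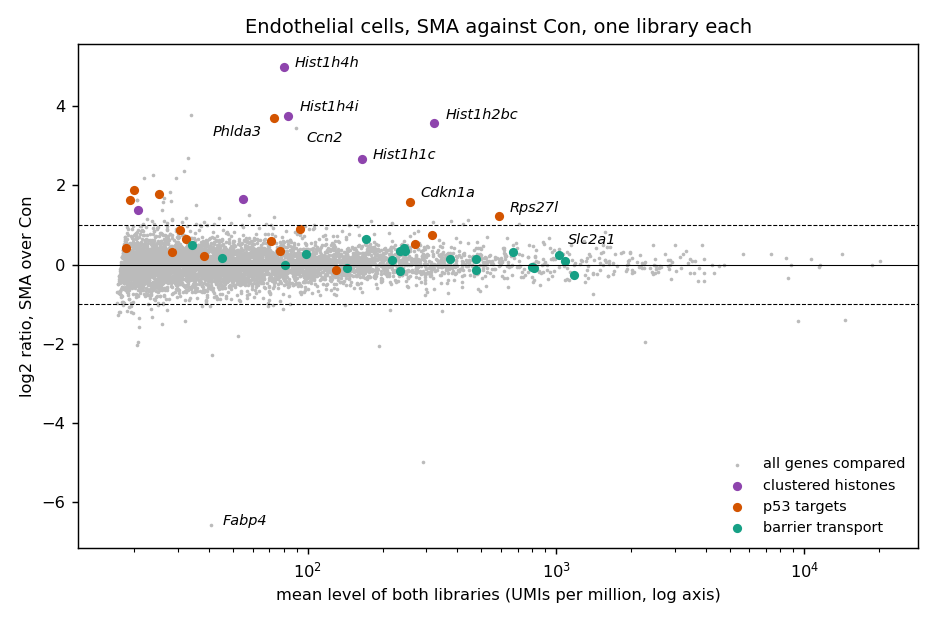
Each point is a gene with at least 100 UMIs in endothelial cells (Xist not drawn), with its mean level in UMIs per 1000000 on a log axis and its log2 ratio of SMA over Con, and dashed lines mark 2-fold. The 6 clustered histone genes that reached this count, mainly through SMA, and several p53 targets lie above the upper line, and the 20 barrier transport genes lie between the lines.

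Clustered histone genes held 4 of the 12 highest ratios, the highest among them. Their proteins pack newly made DNA, and their mRNAs normally end in a short stem-loop rather than a poly(A) tail. That end is cut with the help of the U7 snRNP, whose assembly needs SMN. The libraries were primed on poly(A), so a histone mRNA with the usual end is poorly captured. The stem-loop is printed below for the histone genes that held at least 100 UMIs and had it, to show what these genes share. Capitals mark the 16-base pattern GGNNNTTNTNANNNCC on the sense strand, with 5 bases on each side, read from GENCODE transcripts of GRCm38, the build of the files.
Hist1h4h: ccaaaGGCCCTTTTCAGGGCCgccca
Hist1h4i: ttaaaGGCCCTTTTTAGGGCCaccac
Hist1h1c: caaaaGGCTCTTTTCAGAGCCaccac
Hist3h2a: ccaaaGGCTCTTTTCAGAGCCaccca
Hist3h2ba: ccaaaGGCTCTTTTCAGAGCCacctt

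These sites lie in the 3′ UTR, 24 to 41 bases after the stop codon, at chr13:23531453-23531478 (plus strand), chr13:22040961-22040986 (minus), chr13:23739507-23739532 (plus), chr11:58955167-58955192 (plus) and chr11:58949344-58949369 (plus) in that order. Among these 5 genes both H4 genes shared one stem and the H1, H2A and H2B genes another. The pattern was found in 45 of the 54 listed histone genes with an annotated 3′ UTR (83.3%) and in 471 of 20950 other protein-coding genes (2.25%). Past it, the annotated transcript ran on for 46 bases in Hist1h4h, 330 in Hist1h4i, 840 in Hist1h1c, 1643 in Hist3h2a and 169 in Hist3h2ba, and the poly(A) signal AATAAA followed in the last 3. For each gene only the transcript with the longest annotated 3′ UTR was searched. For Hist1h2bc, on chr13:23684199-23692908, this was a form of 2 exons, and its 3′ UTR of 742 bases did not hold the pattern. Any other form of the gene was not searched, so the gene itself cannot be said to lack the stem-loop.

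Hist1h4h, which encodes a histone H4, had 367 UMIs in SMA and 16 in Con, or 155 and 4.86 CPM. Its log2 ratio was 4.99 (4.28 to 5.82), and a UMI was found in 160 of 309 SMA cells and 15 of 392 Con cells. After thinning every cell to 2000 UMIs the share of cells with a Hist1h4h UMI was 22.3% in SMA and 0.787% in Con, against 4.77% and 0.843% of the other kept cells. The signal was thus spread over many cells, and the highest single SMA cell held 13 UMIs.

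The other histone genes with at least 100 UMIs were higher too. Hist1h4i had 368 and 38 UMIs (log2 ratio 3.75, 3.27 to 4.27). Hist1h2bc, an H2B gene, had 1412 and 163 UMIs (596 and 49.6 CPM; log2 ratio 3.59, 3.35 to 3.83) and was seen in 270 SMA and 92 Con cells. Hist1h1c, which encodes a linker histone that is also expressed outside S phase, had 676 and 149 UMIs (log2 ratio 2.66, 2.40 to 2.92). Differences were smaller for both genes of the small cluster on chromosome 11, the H2A gene Hist3h2a (197 and 87 UMIs, 1.65) and the H2B gene Hist3h2ba (71 and 38 UMIs, 1.38; 0.02 with the shared barcodes left out of Con too). Copies of a class have near-identical coding sequence, so the division of UMIs among copies is uncertain.

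Most copies held few UMIs. Of 67 listed clustered histone genes, 14 had no UMI in either library and 6 reached 100 UMIs, and since these reached it mainly through SMA, they do not speak for the list. Over all copies the UMIs summed to 3492 in SMA and 781 in Con (1475 and 237 CPM), a log2 ratio of 2.64 (2.52 to 2.75). The 6 named genes supplied 3091 and 491 of these UMIs, and the other 61 copies held 401 and 290, a log2 ratio of 0.94 (0.72 to 1.17). With the shared barcodes kept in SMA the sum over all copies stood at 2.18, and with them left out of Con too at 2.41. Of the 53 copies with a UMI, 18 had a ratio with an interval above 0 and 1, the linker histone Hist1h1b with 17 and 48 UMIs (−1.02, −1.91 to −0.20), had one below 0, beside 16.4% and 13.8% of all genes with at least 100 UMIs. The same sum gave 1.23 in the other kept cells and 0.72 in mural-like cells, and the difference between these populations was not tested. Genes were also grouped by the annotated end of the 1 transcript searched. The 26 genes whose transcripts ran over 50 bases past the pattern had 1625 and 466 UMIs. The 19 genes that ended within 50 bases of it had 422 and 78, and the 22 genes without the pattern or without an annotated 3′ UTR had 1445 and 237. Single genes made up the last 2 sums: without Hist1h4h the second set had 55 and 62 UMIs, and without Hist1h2bc the third had 33 and 74.

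The histone difference was also measured in cells without cell-cycle UMIs, although 0 UMIs of these low genes do not show that a cell was not cycling. In the 65 SMA and 74 Con cells with no UMI of the cycling and S-phase lists, histone UMIs stood at 1198 and 227 CPM (log2 ratio 2.40), and in the remaining cells the ratio was 2.68. With the shared barcodes kept in SMA, the log2 ratios of Hist1h4h, Hist1h4i, Hist1h2bc and Hist1h1c were 4.42, 3.21, 3.07 and 2.16. With them left out of Con too these ratios were 4.71, 3.72, 3.20 and 1.89. All listed histone copies together then held 47 Con UMIs, so the sizes are uncertain, while the direction was the same under both settings. Against male Con cells alone the ratios were 5.25, 4.09, 3.61 and 2.64, on 4, 9, 48 and 45 Con UMIs.

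**Figure D2:**
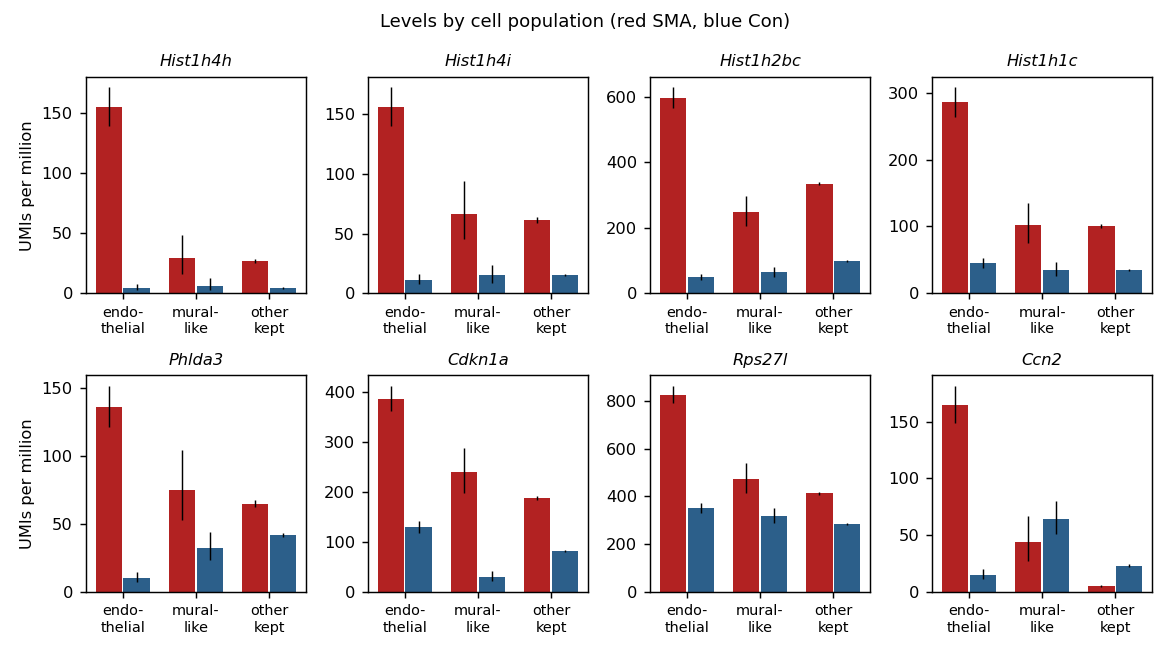
Bars give the level of 8 genes in UMIs per 1000000 (linear axes from 0) in endothelial cells, mural-like cells and all kept cells other than endothelial of SMA (red) and Con (blue), and lines give exact Poisson 95% intervals, which cover counting error only. In endothelial cells all 8 genes are higher in SMA, while Ccn2 is lower in SMA in the other kept cells.

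Targets of p53 were also higher in SMA endothelial cells. This transcription factor is stabilised by DNA damage and other stress, including loss of SMN in motor neurons, and its targets stop the cell cycle or start apoptosis. Summed over the 30 listed targets, UMIs numbered 6881 in SMA and 4827 in Con (2907 and 1468 CPM; log2 ratio 0.99, 0.93 to 1.04), against ratios of 0.41 in the other kept cells and 0.62 in mural-like cells. All 30 had a UMI, 28 were higher in SMA, 23 of them with an interval above 0, and 0 had an interval below 0. Over the 17 with at least 100 UMIs, 6 were at least 2-fold higher, against 0.965% of all genes, and 13 had an interval above 0, against 16.4%. The median log2 ratio of the 17 was 0.76, beside 0.01 for all genes. Several of the 6 reached 100 UMIs mainly through SMA, where they were high, while the sum over all 30 targets does not use that limit. The summed ratio was 0.74 with the shared barcodes kept in SMA and 1.2 with them left out of Con too, on 214 Con UMIs.

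Phlda3, which restrains Akt signalling, had 321 UMIs in SMA and 34 in Con (136 and 10.3 CPM). Its log2 ratio was 3.71 (3.20 to 4.27), with a UMI in 108 SMA and 27 Con cells, whereas it was 0.64 in the other kept cells and 1.21 in mural-like cells (36 and 41 UMIs). In the endothelial cells it was 3.18 with the shared barcodes kept in SMA and 2.20 with them left out of Con too. Phlda3 lies at chr1:135766119-135769136 (GRCm38, plus strand).

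Cdkn1a, the cell-cycle inhibitor p21, had 913 UMIs in SMA and 425 in Con (386 and 129 CPM; log2 ratio 1.58, 1.41 to 1.75). It was found in 227 SMA and 170 Con cells, and after thinning in 47.5% and 18.9% of cells. Cdkn1a was also over 2-fold higher in the other kept cells, at a log2 ratio of 1.21, and in mural-like cells, at 2.99 (115 and 38 UMIs). In the endothelial cells it was 1.25 with the shared barcodes kept in SMA and 2.12 with them left out of Con too. RefSeq gave Cdkn1a 2 promoter windows. The first, from 250 bases before to 50 after the start (GRCm38.p6, chr17:29090729-29091028, plus strand), is shown because the search described next found a full p53 site in it. The site consisted of 2 matches to the 10-base part of the p53 consensus, in capitals, with 12 bases between them. The first match starts 73 bases before the transcription start of this window. The 10 bases right after the second match miss the consensus at their first base only and are not marked, so the capitals show just the pair that the search found. The second window (chr17:29093519-29093818) held no match.
Cdkn1a: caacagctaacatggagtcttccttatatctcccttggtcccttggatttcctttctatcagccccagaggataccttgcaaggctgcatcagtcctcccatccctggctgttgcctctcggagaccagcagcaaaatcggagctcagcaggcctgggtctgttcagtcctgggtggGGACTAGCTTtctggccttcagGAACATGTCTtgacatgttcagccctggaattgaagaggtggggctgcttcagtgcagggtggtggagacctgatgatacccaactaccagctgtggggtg

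Such a full site, searched by the known p53 consensus on both strands with at most 13 bases between the parts, was found in 24 of 32851 promoters of this length (0.0731%). A single part was found in 8.36% of them and in 13 of the 32 promoters (40.6%) of the 23 listed p53 targets that had a promoter sequence. The window of Phlda3 held neither. A match is a description of the letters and not evidence of binding.

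The other p53 targets past 2-fold were Ccng1, a cyclin (74 and 28 UMIs, log2 ratio 1.88), the RNA-binding protein gene Zmat3 (92 and 37 UMIs, 1.79), Trp53inp1 (69 and 31 UMIs, 1.63) and Rps27l (1959 and 1152 UMIs, 1.24, 1.13 to 1.35). Of the apoptosis genes, Bax had 398 and 236 CPM (log2 ratio 0.76, 0.62 to 0.90) and Pmaip1, or Noxa, 121 and 64.8 CPM (0.90, 0.64 to 1.17). Mdm2, the ubiquitin ligase that removes p53, stood at 0.86 (0.40 to 1.33) and the antiproliferative gene Btg2 at 0.51 (0.36 to 0.66). Plk2, a kinase, was the 1 gene of the list with at least 100 UMIs below 0 (−0.14, −0.35 to 0.08). Among targets under 100 UMIs, singled out after their values were seen, the death receptor gene Fas had 62 and 23 UMIs, the cell adhesion gene Perp 32 and 2, Gdf15, a stress-induced hormone, 40 and 6, and the long RNA Pvt1 35 and 0.

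Genes in no list of this kind were high as well. Ccn2, a matricellular protein of the connective tissue growth factor family, had 389 UMIs in SMA and 49 in Con (log2 ratio 3.46, 3.03 to 3.92) and was seen in 128 and 35 cells. It was 2.92 with the shared barcodes kept in SMA and 2.80 with them left out of Con too. In the other kept cells Ccn2 was lower in SMA, at −2.24, and the difference between the populations was not tested. The other highest genes included the sulfotransferase Sult1a1 (135 and 29 UMIs, 2.69), the reductase Dcxr (125 and 34 UMIs, 2.35), the epoxide hydrolase Ephx1 (85 and 26 UMIs, 2.18) and the DNA repair gene Mgmt (114 and 35 UMIs, 2.18). Ecrg4 (149 and 15 UMIs, 3.79) lay in few cells, 14 in SMA and 6 in Con with 50 UMIs in 1 SMA cell, and Lgals3, a galectin (93 and 27 UMIs, 2.26), had 36 UMIs in 1 SMA cell. With the shared barcodes left out of Con too Ecrg4 was at 1.83 and Lgals3 at 1.15, and male Con cells held 1 and 3 UMIs of them.

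Several of the lowest genes lay in few Con cells. Fabp4, a fatty acid carrier of peripheral capillaries, had 2 UMIs in SMA and 266 in Con (log2 ratio −6.58), but they lay in 5 Con cells, 168 of them in 1, and without the top cell of each library the ratio was −6.14. Ccl2, a chemokine, had 25 and 103 UMIs (−1.57) with 87 in 1 Con cell, and its ratio was 0.28 without the top cell of each library. The elastin gene Eln (20 and 108 UMIs, −1.96) had 57 in 1 Con cell and was at −1.11 without the top cells, and the red-cell gene Alas2 (33 and 224 UMIs, −2.29; −3.06 without the top cells, −1.08 with the shared barcodes left out of Con too and −0.81 against male Con cells) moved with haemoglobin, at 14108 CPM in SMA and 38735 CPM in Con. The part of red-cell RNA in these values was not tested.

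Other low genes were spread over many Con cells. Slc7a7, a subunit of an amino acid transporter, had 19 UMIs in 18 SMA cells and 108 in 80 Con cells (log2 ratio −2.03, −2.82 to −1.32). The imprinted gene Mest had 55 UMIs in 41 cells and 267 in 106 (−1.80), and the tip-cell gene Trp53i11 had 41 in 28 and 154 in 68 (−1.43). Lrrc55 (−1.35), the membrane protease Mmp14 (−1.32) and the proapoptotic gene Bcl2l11 (−1.26) lay in 22 to 29 SMA cells and 58 to 78 Con cells. All 6 were below 0 as well with the shared barcodes kept in SMA, with them left out of Con too, and against male Con cells. With the shared barcodes kept in SMA, however, Trp53i11 (−0.80), Lrrc55 (−0.42) and Bcl2l11 (−0.86) were no longer past 2-fold, nor was Bcl2l11 with them left out of Con too (−0.81), and Slc7a7 and Mest stood at −1.02 and −1.01 with them kept.

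Markers of other cells were present in the endothelial cells. The haemoglobin genes of red cells were by far the highest, at 14108 CPM in SMA and 38735 CPM in Con. They had 5 or more UMIs in 64 SMA and 99 Con cells. Of the other marker lists, those of astrocytes and oligodendrocytes were the highest. Mural markers summed to 57.9 CPM in SMA and 18.9 in Con (137 and 62 UMIs over 8 genes), with 43 UMIs in 1 SMA cell and 0 UMIs of Kcnj8 in SMA. Fibroblast markers summed to 124 and 218 CPM, microglial to 622 and 506, astrocytic to 1030 and 952, oligodendrocytic to 1108 and 1424 (in the other kept cells 5742 and 4977 for astrocytes and 4965 and 5980 for oligodendrocytes), neuronal to 80.3 and 41.0 and monocytic to 133 and 93.9. Leaving out the 23 SMA and 16 Con cells with 5 or more UMIs of chosen marker genes of other cells kept 51 of the 57 higher and 34 of the 37 lower genes. That limit used no astrocyte or oligodendrocyte marker, and 187 SMA and 179 Con cells held 5 or more UMIs of the 8 astrocyte markers, 96 and 169 of the 8 oligodendrocyte markers and 47 and 35 of the 8 microglial ones. Fibroblast markers reached 5 UMIs in 8 SMA and 39 Con cells, more Con cells than the limit left out. The part of these markers in the results was not tested. The limit left Hist1h4h at 5.28, Phlda3 at 4.23 and Ccn2 at 3.53, while Ccl2 turned to 1.54.

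**Figure D3:**
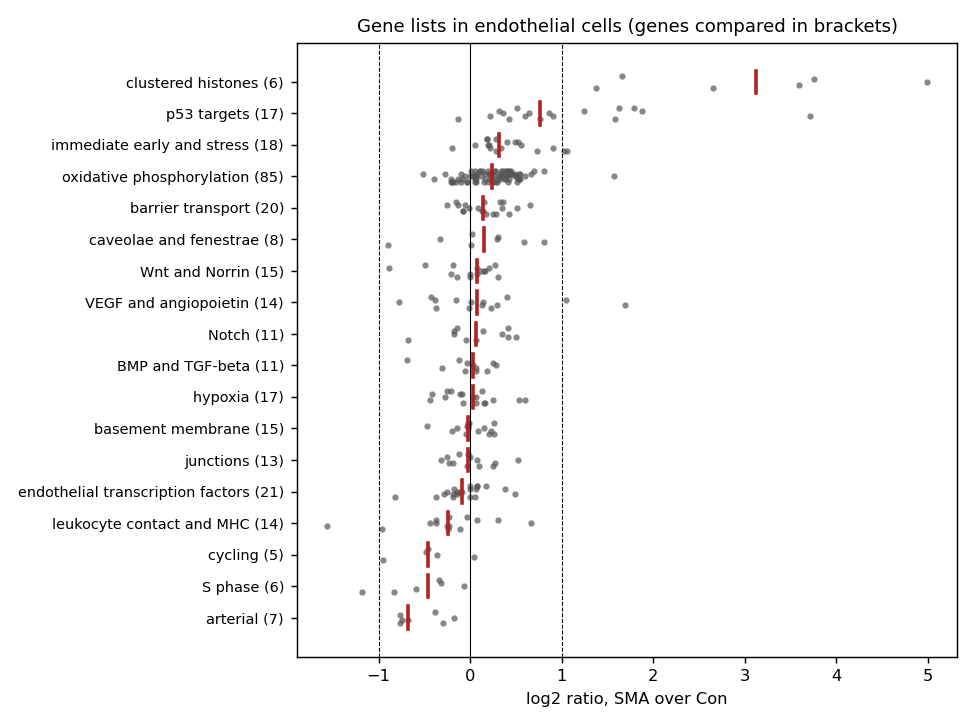
Each point is a gene with at least 100 UMIs in endothelial cells, placed by its log2 ratio of SMA over Con within its gene list, and red bars mark list medians. The drawn clustered histones and p53 targets lie to the right, arterial, S-phase and cycling genes to the left, and the barrier, junction, Wnt, VEGF and hypoxia lists have medians within 0.15 of 0. The clustered histones drawn reached 100 UMIs mainly through SMA and do not speak for their list.

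Most barrier transporters differed little between SMA and Con. All 21 listed transporters had UMIs, 20 had at least 100, 0 of these were past 2-fold, and their log2 ratios ran from −0.26 to 0.66 with a median of 0.14. Of the 20, 11 had an interval above 0 and 2 one below, against 16.4% and 13.8% of all genes, and the summed log2 ratio was 0.07 (0.05 to 0.10). With 0.965% and 0.627% of all genes past 2-fold, 0 of 20 is also what the background gives. Slc2a1, the glucose transporter of the barrier, stood at 1116 CPM in SMA and 937 in Con (log2 ratio 0.25, 0.18 to 0.33), Slco1c1 at 1116 and 1051 (0.09, 0.01 to 0.16), and Mfsd2a, a lipid carrier that limits vesicle transport, at 794 and 840 (−0.08, −0.17 to 0.00). The highest was Slco1a4, an organic anion transporter (210 and 133 CPM, 0.66, 0.47 to 0.85; −0.28 with the shared barcodes left out of Con too), and the lowest Slc3a2, the heavy chain of amino acid exchangers (1075 and 1286 CPM, −0.26, −0.33 to −0.19). Atp10a, below 100 UMIs, had 29 and 15 (1.43, 0.48 to 2.43; −0.53 with the shared barcodes left out of Con too). The median of the list stayed between 0.07 and 0.27 under every alternative setting tried.

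Junction genes also lay near 0. The 13 of 17 with at least 100 UMIs had a median of −0.02, with 0 past 2-fold (0.965% of all genes were higher and 0.627% lower). Among them the adhesion molecule Esam stood at 1060 and 1090 CPM (log2 ratio −0.04), Ctnnb1, or beta-catenin, at 315 and 375 CPM (−0.25), and Lsr at 224 and 280 CPM (−0.32, −0.48 to −0.17). Of the 13, 6 were above 0. An interval above 0 was found for 3 and one below for 2, beside 16.4% and 13.8% of all genes. Cldn5, the main claudin of the barrier, was used to choose the cells, and its 3169 and 4256 CPM (−0.43) are therefore a description only. Caveolar genes had a median of 0.15 over 8 genes, with Cav1 at 0.01 and Cav2 at 0.81 (271 and 155 CPM, 0.64 to 0.98). The lowest was Ehd2, which stabilises caveolae, with 64 and 166 UMIs (−0.90), and Plvap, which marks fenestrated and leaky vessels, had 22 and 48 UMIs in 12 and 17 cells. Basement membrane genes had a median of −0.02 over 15 genes, with Sparc at 4712 and 4783 CPM and the collagen gene Col4a1 at 492 and 428 CPM (0.20).

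Signals that shape vessels differed at single genes. In the VEGF and angiopoietin list, 2 of the 14 genes with at least 100 UMIs were at least 2-fold higher and 0 lower (0.965% and 0.627% of all genes), with a median of 0.07. Angpt2, the ligand that loosens vessels for sprouting, had 95 UMIs in SMA and 41 in Con (40.1 and 12.5 CPM; log2 ratio 1.69, 1.14 to 2.25) in 47 and 25 cells. Apln, the peptide apelin made by sprouting tip cells, had 694 and 467 UMIs (293 and 142 CPM; 1.05, 0.87 to 1.22), and after thinning it was found in 31.5% of SMA and 17.1% of Con cells.

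Receptors of these signals differed in both directions. Tek, the receptor of Angpt2, stood at 65.9 and 88.8 CPM (−0.43, −0.72 to −0.14) and Aplnr, the apelin receptor, at 95.5 and 163 CPM (−0.77, −1.0 to −0.55). Kdr was at 578 and 494 CPM (0.23, 0.12 to 0.33). Angpt2 and Apln stayed higher in SMA with the shared barcodes kept (1.39 and 0.74), with them left out of Con too (1.18 and 2.46) and against male Con cells (1.39 and 0.99). These receptors were named after their values were seen, apart from Kdr.

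The Wnt and Norrin list had a median of 0.08 over 15 genes, with 0 past 2-fold (0.965% of all genes were higher and 0.627% lower). Of the 15, 0 had an interval above 0 and 3 one below, beside 16.4% and 13.8% of all genes. The Wnt targets Apcdd1 (449 and 426 CPM) and Lef1 (82.4 and 82.4 CPM) were at like levels, while Nkd1, an inhibitor of the pathway, was the lowest of the list (49.0 and 90.9 CPM, −0.89, −1.21 to −0.58). Notch genes had a median of 0.06 over 11 genes, with Hes1, a target, at 204 and 154 CPM (0.41, 0.23 to 0.60). BMP and TGF-beta genes had a median of 0.03 over 11, with Id1 at 585 and 494 CPM (0.24) and Tgfb1 at 127 and 205 CPM (−0.69, −0.89 to −0.49). Endothelial transcription factors had a median of −0.09 over 21, with Klf2, which responds to flow, at 859 and 826 CPM.

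Hypoxia targets lay on both sides of 0. The 17 of 24 with at least 100 UMIs had a median of 0.03, and 0 were past 2-fold (0.965% of all genes were higher and 0.627% lower). Of the 17, 3 had an interval above 0 and 4 one below, shares near those of all genes (16.4% and 13.8%). Gapdh stood at −0.25, Pkm at −0.27 and Ldha at 0.03. Over the alternative settings the median ran from −0.14 to 0.10.

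Arterial genes were lower in SMA. All 12 listed genes had a UMI, 0 had a higher level in SMA, and 6 had an interval below 0, though 0 were past 2-fold among the 7 with at least 100 UMIs, whose median log2 ratio was −0.68. Of these 7, 4 had an interval below 0, against 13.8% of all genes. The summed log2 ratio was −0.67 (−0.76 to −0.57), −0.77 with the shared barcodes kept in SMA and −0.66 with them left out of Con too. Gja4, a gap junction protein of arterial endothelium, had 521 and 1228 UMIs (220 and 373 CPM; −0.76, −0.91 to −0.61), Fbln5, which binds elastic fibres, 196 and 465 UMIs (−0.77, −1.02 to −0.53), and Stmn2 226 and 528 UMIs (−0.75). With the shared barcodes left out of Con too, Gja4 was at −0.56 but Fbln5 at 0.49. The same list summed to a log2 ratio of −0.63 in mural-like cells and −1.61 in the other kept cells. Fibroblast markers, at 124 and 218 CPM in the endothelial cells, were lower in SMA as well, and their part in the arterial values was not tested.

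Cells were also placed along the vessel tree. Each cell was thinned to 2000 UMIs, which left out 4 SMA and 11 Con cells, and was called arterial, venous or tip when it held 2 or more genes of that list and cycling when it held 3 or more cycling genes. These calls are ranges of a score, not cell types, and many cells lay 1 gene below a limit. Of 305 SMA and 381 Con cells, 55 (18.0%, 13.9 to 22.8%) and 82 (21.5%, 17.5 to 26%) were arterial, a log2 ratio of −0.26 (−0.70 to 0.19). It was −0.62 (−1.02 to −0.21) with the shared barcodes kept in SMA, −0.41 (−1.23 to 0.41) with them left out of Con too and −0.29 (−0.57 to −0.01) without thinning. Tip cells made up 13.1% and 9.45% (0.47, −0.14 to 1.09). The tip list held Angpt2 and Apln, higher in SMA, and Trp53i11, lower in SMA, so this share is not separate from the ratios of these genes. The tip ratio was 0.85 (0.41 to 1.30) in cells thinned to 4000 UMIs, 0.91 (0.22 to 1.60) with no other-cell marker, 0.40 (0.12 to 0.68) without thinning and −0.85 (−2.03 to 0.33) with the limit raised by 1 gene, and 0.16 and 0.27 with the shared barcodes kept in SMA and left out of Con too. Venous cells made up 9.18% and 7.35% (0.32, −0.40 to 1.04), with ratios of 0.65 and −0.24 under these 2 settings. Of the other kept cells, 2.18% and 2.90% passed the arterial limit, 6.0% and 5.04% the venous and 1.29% and 2.01% the tip limit, so the venous call stood little above its background. Mural-like cells passed the arterial limit in 30.4% and 29.9%, values above those of endothelial cells, and the venous limit in 10.1% and 7.61%.

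**Figure D4:**
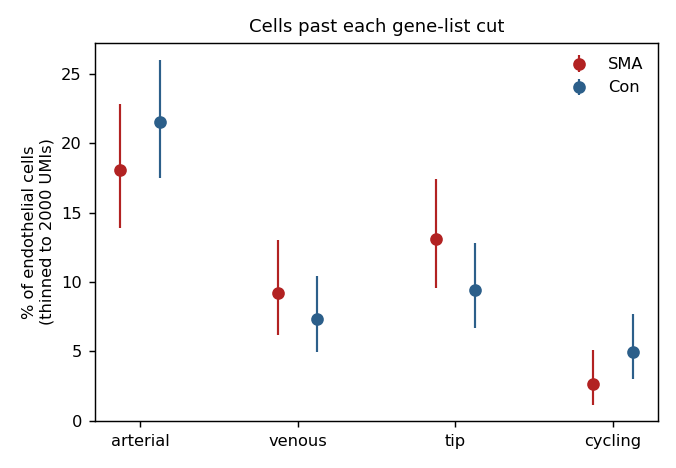
Points give the percent of endothelial cells, thinned to 2000 UMIs, that passed the limit of each gene list in SMA (red, 305 cells) and Con (blue, 381 cells), and lines give exact binomial 95% intervals. The intervals of both libraries overlap in all 4 classes.

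Cycling endothelial cells were fewer in SMA by count, with an interval that spans 0. They numbered 8 of 305 in SMA (2.62%, 1.14 to 5.10%) and 19 of 381 in Con (4.99%, 3.03 to 7.68%), a log2 ratio of −0.93 (−2.10 to 0.24), and without thinning 5.50% and 11%, a ratio of −1.0 (−1.78 to −0.21). With the shared barcodes kept in SMA the ratio was 0.69 (−0.07 to 1.44), and with them left out of Con too it was −2.05 (−3.60 to −0.50), so the direction turned with these barcodes. Among cells with at least 5000 UMIs it was also above 0, at 0.09 (−1.2 to 1.3). Of the other kept cells 10.8% and 9.52% were cycling, and of mural-like cells 6.33% and 10.9%, a ratio of −0.78 (−2.14 to 0.58). Among S-phase genes, 15 of 16 were lower in SMA and 9 had an interval below 0 (13.8% of all genes with at least 100 UMIs did), with a summed log2 ratio of −0.57 (−0.72 to −0.43), against −0.60 in mural-like cells and 0.16 in the other kept cells. It was −0.13 with the shared barcodes kept in SMA and −0.88 with them left out of Con too. Pcna, the DNA polymerase clamp, had 171 and 249 UMIs (−0.07), Tyms, the thymidylate synthase, 57 and 141 (−0.83, −1.30 to −0.38), and Mcm3, a subunit of the replicative helicase, 25 and 79 (−1.19, −1.90 to −0.52).

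Arterial cells were compared with unassigned cells within each library, and the kept barcodes of the libraries do not overlap. Of 162 listed genes that did not define a class and were compared between arterial and unassigned cells, 135 had the same sign in SMA and Con, as had 61.1% of all 5881 genes compared. Sox17, a transcription factor of arterial identity, was higher in arterial cells by 2.18 in SMA and 1.68 in Con on the log2 scale, the taurine transporter Slc6a6 by 1.88 and 1.42, the chemokine Cxcl12 by 1.62 and 1.72, and Slco1a4 by 1.35 and 1.86. Aplnr was lower in arterial cells, at −2.64 and −2.95, as was Car4, a carbonic anhydrase of capillaries, at −2.55 and −3.97. The histone gene Hist1h4h was also higher in arterial cells, by 1.38 (1.02 to 1.75) in SMA and 2.32 (0.52 to 4.28) in Con, the latter on 8 UMIs.

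**Figure D5:**
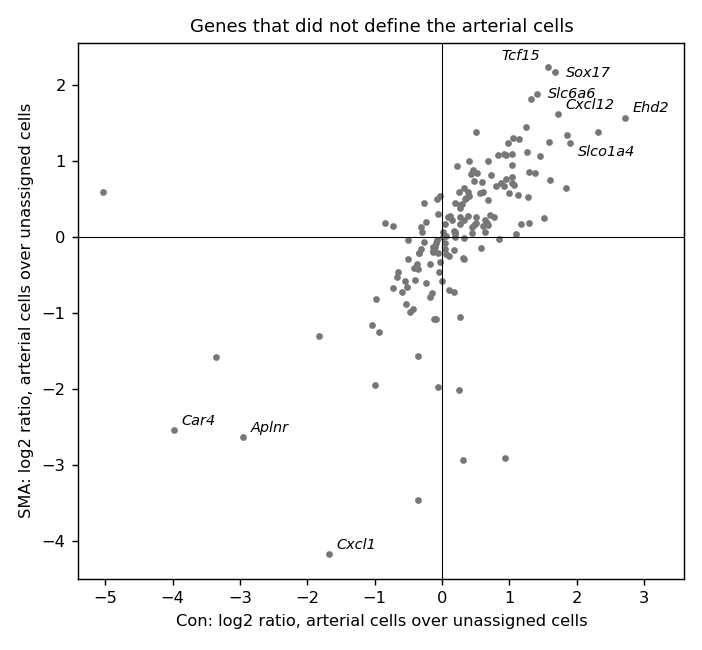
Each point is 1 of 162 listed genes that define none of the 4 classes, placed by its log2 ratio of arterial over unassigned endothelial cells in Con (horizontal) and SMA (vertical). Most genes lie at the lower left and upper right, with Sox17 and Cxcl12 high and Car4 and Aplnr low in both libraries.

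Of 15 basement membrane genes compared between tip and unassigned cells, 12 were higher in tip cells in both libraries, 10 of them with both intervals above 0, where 27.8% and 2.79% of 5881 genes were. The nidogen gene Nid2 was higher by 1.13 in SMA and 1.35 in Con, and the laminin genes Lamb1 by 1.53 and 1.04 and Lamc1 by 0.96 and 0.95. Of 20 barrier transporters, 12 were lower in tip cells in both libraries and 4 higher, and 7 had both intervals below 0, where 29.4% of all genes were lower and 1.38% had both intervals below 0, with the drug efflux pump Abcb1a at −1.03 and −1.13 and Slc6a6 at −1.48 and −1.20, and so was Cxcl12 (−1.21 and −1.09). In cycling cells Mfsd2a was at −2.18 and −0.77 and Slco1c1 at −2.22 and −0.88, where SMA had 5 and 7 UMIs. In cells past the venous limit, Cav1 was higher by 0.44 and 0.75, and Car4 was at −1.18 and −0.62.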

How the data were processed

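Single-cell 3′ libraries (10x Genomics, version 3 chemistry) of spinal cord from SMA and Con mice at postnatal day 4 were analysed, 1 library per group, grouped by the genotype in the labels. The deposited values are raw UMI counts per gene and barcode, which the authors obtained from Cell Ranger (4.0.0 per the file headers, an earlier version in the study's methods) on mm10. Seurat 3.2.2, named in the submitters' processing notes, was not used in making these counts as far as the files show.

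Barcodes with 200 to 4000 genes and under 10% mitochondrial UMIs were kept, without SMA barcodes also listed in Con. The upper gene limit was the treatment of doublets. Mural-like cells were those that were not endothelial, with 4 or more of 8 mural markers and at most 1 of Cldn5, Flt1, Cdh5, Pecam1, Col1a2, Cx3cr1, Pdgfra and Aqp4. UMIs were summed over the endothelial cells of each library and scaled to CPM (per 1000000). Log2 ratios have exact conditional binomial 95% intervals, shares of cells exact binomial (Clopper-Pearson) ones and ratios of shares log-scale ones. Genes with at least 100 UMIs over both libraries were compared, and a gene past 2-fold was counted as higher or lower. A gene at 0 was given no ratio. Cells were thinned to 2000 UMIs at random with a fixed seed for shares of cells. Steps were tested on simulated data. The analysis used Python 3.11.15, numpy 2.4.6, scipy 1.17.1, pandas 2.3.3 and matplotlib 3.10.9.

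Named were the 12 genes of highest and the 12 of lowest ratio, leaving out the 14 genes of the marker rule, Xist, Y-linked and haemoglobin genes and genes without a name (2 of the lowest are not reported here), the 20 genes of highest level over other cells among those with at least 1000 UMIs, and in each list the genes past 2-fold and the 2 to 4 of highest level. Other genes named from the lists were chosen after their values were seen. The cells and the gene lists were chosen with earlier results of these data known. Gene positions were looked up in GENCODE vM21 (GRCm38), where 32158 of the 32285 gene identifiers were found.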

Additional observations from a re-analysis of the deposited data

How the results depend on the processing

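With 1 library per group, no spread between animals could be measured, and pool and library cannot be told apart from genotype. Values of SMA against male Con cells are given for several genes, and male and female Con cells were not compared. At 309 and 392 cells, genes under 100 UMIs did not enter the main counts of genes past 2-fold and were given only as members of lists, and small differences in the shares of scored cells were not detectable. No paired analysis was possible because each group had 1 library and no test was made. Of 159 values of 12 main results under alternative settings, 133 stayed inside the counting interval of the main value, or within 1.5 times it for a count, though 11 of these had the other sign, all from ratios or medians whose interval spans 0. Of the rest, 23 moved further, 4 of them to the other sign, and 3 were counted as reversed. The p53 (0.59 to 0.99), barrier, VEGF and angiopoietin medians stayed above 0 throughout, and the hypoxia median changed sign. The cause of the changes listed next was not tested.

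The log2 ratio of the endothelial share was 0.57 with shared barcodes kept in SMA, 1.56 with them left out of Con too, −0.11 in cells of at least 5000 UMIs, −0.016 without high-ribosomal and haemoglobin cells and −0.013 with the marker rule on thinned cells. The last 2 of these settings, and those that left out the shared Con barcodes, the cells with RNA of other cells or the top cells, were chosen after seeing the data. Genes 2-fold higher numbered 57 and became 91 against male Con cells, 251 with shared Con barcodes left out too, 135 at 50 UMIs or more and 21 at 300 or more. Genes 2-fold lower numbered 37 and became 17 with shared barcodes kept in SMA, 60 with shared Con barcodes left out too, 75 at 50 UMIs or more and 13 at 300 or more. The histone median of 3.12 became 1.30 with shared barcodes kept, 3.63 in deep cells, 3.58 with 5 or more markers, 3.69 with no other-cell marker, 2.60 at a mitochondrial limit of 20%, 3.61 against male Con cells, 3.62 without cells with RNA of other cells, 1.72 at 50 UMIs or more and 3.67 at 300 or more, on 4 to 10 genes. The genes behind 3.12 passed the UMI limit mainly through SMA, so this median does not speak for the list, whose other 61 copies summed to a log2 ratio of 0.94. The cycling ratio became 0.69 with shared barcodes kept, the venous ratio −0.58 in deep cells and −0.70 with no other-cell marker, and the tip ratio −0.85 when the limit was raised by 1 gene. Of 376 values of 29 genes (those of highest and lowest ratio and the histone and p53 genes past 2-fold), 5 reversed, all of Ccl2, which was at 1.39 with no other-cell marker, 3.38 against male Con cells (1 UMI there), 0.84 with shared Con barcodes left out too, 1.54 without cells with RNA of other cells and 0.28 without the top cells.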

Other observations

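Genes of the nuclear-encoded respiratory chain were slightly higher in SMA endothelial cells. Of 95 listed genes, 85 had at least 100 UMIs, 69 of these were above 0 and their median log2 ratio was 0.24, beside 0.01 for all genes compared. Summed over the list, the ratio was 0.25 in the endothelial cells and 0.25 in the other kept cells, and 0.02 in mural-like cells. Cox6b2, a subunit of cytochrome c oxidase best known from testis, was the 1 gene past 2-fold (92 and 43 UMIs, 1.57). The mitochondrially encoded genes had a median of −0.02 over 12 genes and ribosomal-protein genes one of 0.04 over 81.

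Immediate early and stress genes, which dissociation at warm temperature is known to raise, had a median of 0.31 over 18 genes, beside 0.01 for all genes compared. Of the 18, 17 were above 0. An interval above 0 was found for 14 and one below for 1, against 16.4% and 13.8% of all genes. Fos had 2255 and 1535 UMIs (log2 ratio 1.03) and the heat shock gene Hspa1a 157 and 105 (1.05), with Junb at 0.52 and Jun at 0.55. Summed, the list stood at 0.38 in the endothelial cells, at 0.29 in the other kept cells and at 0.44 in mural-like cells.

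Antigen presentation and leukocyte contact genes had a median of −0.24 over 14 genes. H2-D1, a class I heavy chain, stood at 963 and 1246 CPM (−0.37, −0.45 to −0.30), whereas Ly6a was at 775 and 488 CPM (0.67, 0.57 to 0.76). Interferon-response genes had a median of −0.06 over 5 genes. Genes of the SMN complex had a median of −0.14 over 4 genes, with Gemin7 at 84.9 and 80.3 CPM and Strap at 92.1 and 105 CPM.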
